A study of Mus musculus with 6 samples.

Results

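The immediate-early transcription factors examined in sorted mouse astrocytes were Fos, Fosb, Jun, Junb, Egr1, Egr2, Nr4a1, Atf3, Ier2 and Klf4. They were found by their gene symbols, and all 10 were present among the 45777 genes of the deposited table. Tests were made on the 22337 genes that had no sample at 0 counts, and all 10 were among them. The astrocytes came from male Aldh1l1-CreERT2;tdTomato fl/fl mice on a C57BL/6 background, in which tamoxifen, given for 5 days, turns on a red fluorescent reporter (tdTomato) wherever the Aldh1l1 promoter is active. The Cre driver and the tamoxifen were common to both groups, which the labels give as wild type in genotype. At 8 weeks of age the mice received 1 injection of streptozotocin (STZ, which destroys pancreatic beta cells, labelled hyperglycemic) or of citrate buffer (vehicle, labelled normoglycemic). The injection fell on day 10 of the schedule and the brains were taken on day 31. The brains were dissociated with enzymes, tdTomato-positive cells were sorted, and each sample combined cells from 3 mice, which gave 3 vehicle pools and 3 STZ pools.

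Immediate-early genes are switched on within minutes of a stimulus without new protein synthesis, through factors such as SRF with its ETS partners and CREB that are already bound or waiting in the cell. Their products are mostly transcription factors that pass the signal on to later genes, and their transcripts decay quickly. In brain tissue they report activity, injury and stress. Dissociation with warm enzymes is itself known to induce them, so a level in sorted cells can hold both what the cells carried in the animal and what was added during preparation. The methods do not say whether a blocker of transcription was present during dissociation, and the share of either source was not tested.

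RefSeq promoter entries (build GRCm38.p6, 250 bases before to 50 bases after the start site) were found for 8 of the 10 genes, and none for Egr1 and Ier2. The 250 bases before the start site are shown for Fos, Junb and Klf4, the 3 genes with an entry among those with the smallest p-values in the comparison of STZ with vehicle, and for Jun, whose difference had the narrowest interval. Capitals mark TGACG or CGTCA, the half-site of the cAMP response element that CREB and ATF proteins bind, in Fos (chr12:85473640-85473889, plus strand), Junb (chr8:84978749-84978998, minus strand) and Klf4 (chr4:55532476-55532725, minus strand). In Jun (chr4:95052223-95052472, minus strand) capitals mark TGACATCA, the variant of that element which the Jun promoter is known for.
Fos: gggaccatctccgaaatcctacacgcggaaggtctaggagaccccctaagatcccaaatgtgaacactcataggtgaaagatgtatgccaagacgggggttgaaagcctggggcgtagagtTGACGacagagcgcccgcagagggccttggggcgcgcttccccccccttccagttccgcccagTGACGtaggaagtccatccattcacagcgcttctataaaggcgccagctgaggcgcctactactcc
Junb: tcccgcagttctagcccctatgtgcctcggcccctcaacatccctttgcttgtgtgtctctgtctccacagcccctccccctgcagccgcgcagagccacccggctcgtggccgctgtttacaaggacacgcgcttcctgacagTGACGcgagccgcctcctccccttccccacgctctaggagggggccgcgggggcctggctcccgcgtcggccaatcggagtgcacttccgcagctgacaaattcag
Klf4: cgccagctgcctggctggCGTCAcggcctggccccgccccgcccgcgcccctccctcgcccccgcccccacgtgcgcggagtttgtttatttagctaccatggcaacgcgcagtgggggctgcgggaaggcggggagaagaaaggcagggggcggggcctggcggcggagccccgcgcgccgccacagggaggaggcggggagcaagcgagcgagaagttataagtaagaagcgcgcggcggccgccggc
Jun: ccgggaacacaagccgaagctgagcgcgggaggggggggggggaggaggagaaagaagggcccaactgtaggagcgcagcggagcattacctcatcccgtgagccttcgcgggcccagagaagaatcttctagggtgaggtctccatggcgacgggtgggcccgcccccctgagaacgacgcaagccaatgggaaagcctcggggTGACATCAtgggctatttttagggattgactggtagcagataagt

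The 250 bases before the start site were searched in each entry, on both strands except for TATAA, which was sought on the strand of the gene. A member counted if any of its entries held the site, whereas the percentages are over single entries. Among the members this differs only for Egr2. The half-site stood in 7 of the 8 genes (Atf3, Egr2, Fos, Fosb, Junb, Klf4 and Nr4a1) and in 17.8% of the 32851 promoter entries of all genes. In Fos it began 129 and 66 bases before the start site, with TATAA 33 bases before. In Junb it began 106 bases and in Klf4 232 bases before. The full element TGACGTCA, which contains both half-sites, was in 0 of the 8 and in 1.55% of all entries. TGACATCA or TGATGTCA was in Jun alone of the 8, 45 bases before its start site, and in 2.93% of all entries. The AP-1 site TGANTCA, bound by Fos and Jun dimers, was in 0 of the 8 and in 6.75% of all entries. The EGR site (GCGNGGGCG or CGCCCNCGC) was in Fosb, Klf4 and Nr4a1 and in 4.70% of all entries. TATAA was in Egr2, Fos and Klf4 and in 16.0% of all entries, and a CArG box, the site of SRF, was in Egr2 (which has 5 entries) and in 1.47% of all entries. A match describes letters in this window and is not evidence of binding.

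Total counts per pool ranged from 52529048 to 58749115, and 3 counts corresponded to 0.0495 to 0.0578 CPM, the unit of normalised read count used here (counts scaled to library size with TMM factors). Astrocyte markers were abundant in every pool, with 10 of 10 markers detected and a summed level of 22863 to 26456 CPM in vehicle and of 22730 to 24614 CPM in STZ. Markers of other cells were also present in every list examined. Nothing in the labels says more of a replicate than that it is a separate pool, so a p-value here measures the spread between pools. Fewer cells of a type and less RNA per cell cannot be told apart in such bulk samples.

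No member passed the test between STZ and vehicle (edgeR quasi-likelihood test, adjusted p under 0.05 and fold change over 1.5), and 0.0224% of all tested genes did. Klf4, Junb, Fos and Ier2 had the largest differences, all higher on average in STZ. They were the 4 of 10 members with an unadjusted p under 0.05, against 11.3% of all tested genes, or 5.63% when counting only those higher in STZ. With DESeq2, the tool of the study's methods, Klf4 passed as the only member, against 1.05% of all tested genes. The log2 fold change was above 0 for 8 members and below 0 for 2, with a median of 0.27 against 0.012 over all tested genes. That median was 0.040 without STZ replicate 2, where 5 members were above 0, and was 0.51 without STZ replicate 3, where 9 were.

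**Figure D1:**
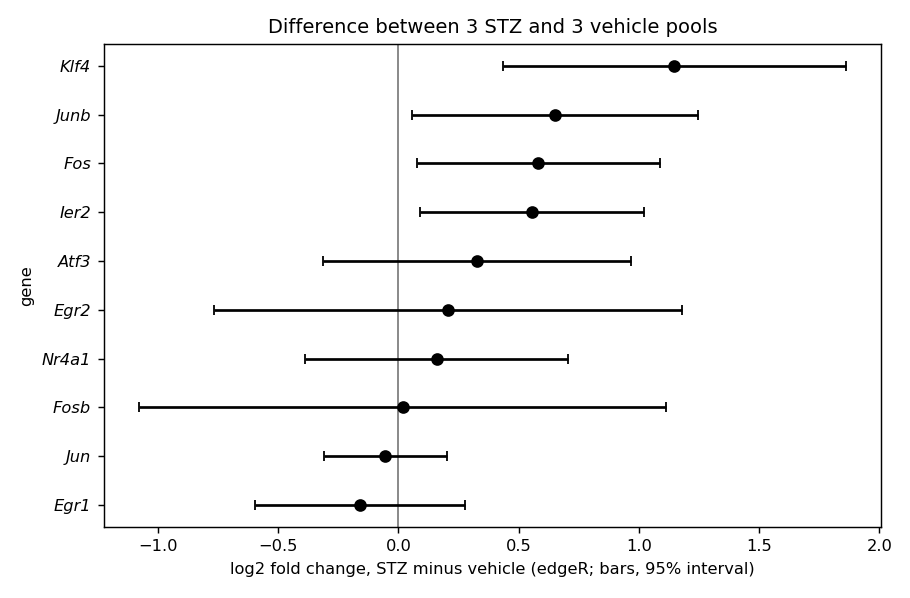
Log2 fold change of each member (STZ minus vehicle, edgeR) on the horizontal axis, with its 95% interval as a bar, ordered by size from Egr1 at -0.16 to Klf4 at 1.15. The unadjusted intervals of Klf4, Junb, Fos and Ier2 lie above 0 and those of the other 6 include it, and after adjustment over all tested genes no member passed.

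Among the AP-1 subunits Fos and Junb had the same arrangement of pools, which Jun and Atf3 did not have, and Fosb rested on few counts. STZ replicate 3 was the lowest STZ pool for all of them but Jun. Fos and Fosb pair with Jun proteins into the AP-1 dimer, Junb is the Jun family member that often replaces Jun on the same sites, and Atf3 is a stress-induced relative that binds CREB and ATF sites.

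Fos (chr12:85473890-85477274, with gene positions from the same RefSeq build) stood at 109, 97.7 and 138 CPM in vehicle replicates 1 to 3 and at 204, 195 and 118 CPM in STZ replicates 1 to 3. STZ replicates 1 and 2 were above every vehicle pool, STZ replicate 3 lay inside the vehicle range, and the groups overlapped. STZ exceeded vehicle by a log2 fold change of 0.58 ± 0.22 (SE, 95% interval 0.076 to 1.09), with an edgeR p of 0.0294 and an adjusted p of 0.398.

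Junb (chr8:84976909-84978748) stood at 62.2, 46.4 and 71.9 CPM in vehicle and at 117, 106 and 60.3 CPM in STZ. As for Fos, STZ replicates 1 and 2 were above every vehicle pool, and STZ replicate 3 fell between the vehicle pools. Its log2 fold change was 0.65 ± 0.26 (SE, 95% interval 0.055 to 1.25), with an edgeR p of 0.0361 and an adjusted p of 0.411.

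Jun (chr4:95049036-95052222) stood at 156, 121 and 120 CPM in vehicle and at 126, 130 and 127 CPM in STZ. The 3 STZ pools were nearly level, at 127 ± 2.01 CPM (SD, n = 3), and lay inside a vehicle range set by vehicle replicate 1. Its log2 fold change of -0.054 ± 0.11 (SE) had a 95% interval from -0.31 to 0.20, the narrowest of the members, and an edgeR adjusted p of 0.881. A change of 1.5-fold in either direction lies outside that interval, whose bounds are folds of 0.808 and 1.15.

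Atf3 (chr1:191170296-191183333) stood at 15.0, 7.65 and 10.4 CPM in vehicle and at 13.8, 17.3 and 10.5 CPM in STZ. The groups overlapped through vehicle replicate 1, which exceeded STZ replicates 1 and 3. For Atf3 the log2 fold change was 0.33 ± 0.27 (SE), with an edgeR adjusted p of 0.676, and was 0.61 without vehicle replicate 1 and 0.11 without vehicle replicate 2.

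Fosb (chr7:19302696-19310118) was the least abundant member, resting on 15 to 44 counts per pool. It stood at 0.821, 0.462 and 0.401 CPM in vehicle and at 0.709, 0.739 and 0.255 CPM in STZ. The groups overlapped in part, with vehicle replicate 1 the highest and STZ replicate 3 the lowest pool. Its log2 fold change of 0.018 ± 0.47 (SE) had a 95% interval from -1.08 to 1.11 and an edgeR adjusted p of 0.991. A 2-fold change in either direction lies inside that interval.

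**Figure D2:**
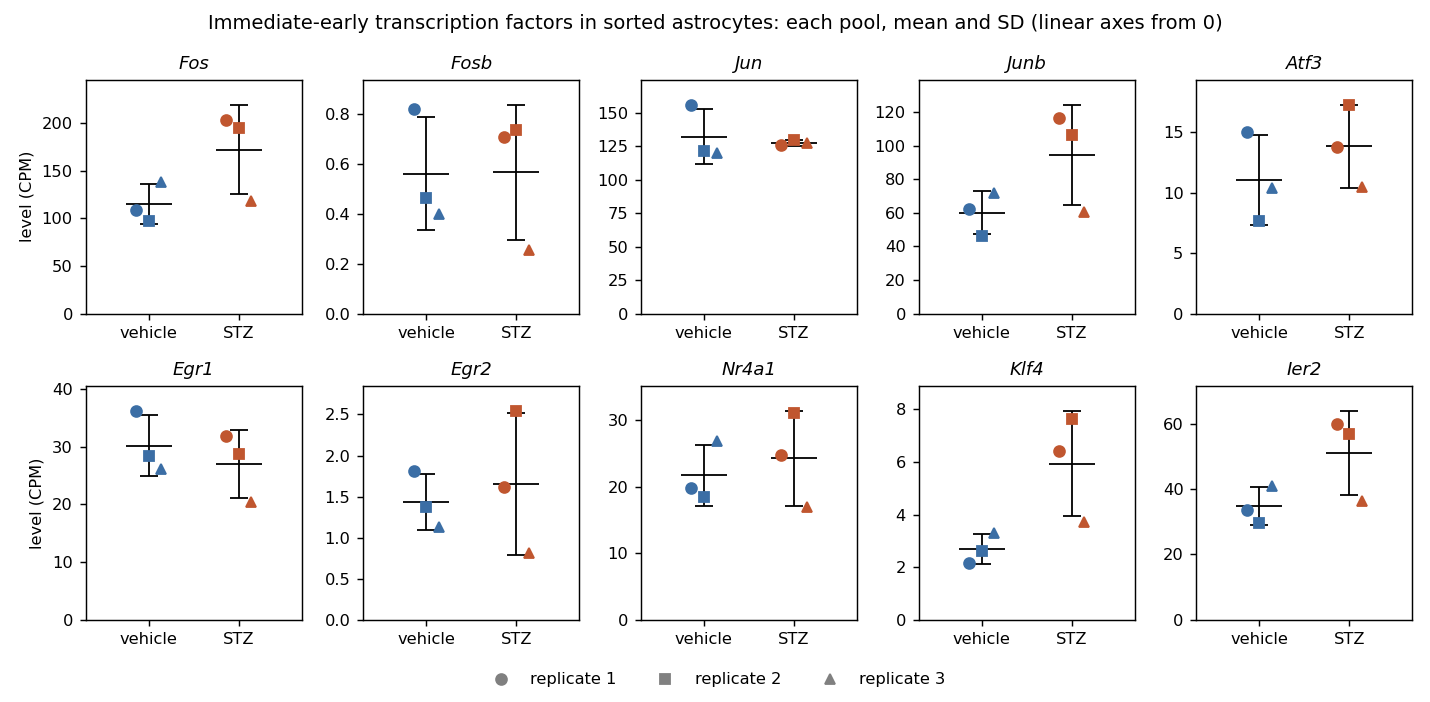
Level of each member in CPM (vertical axis, linear and from 0) in the 3 vehicle and 3 STZ pools, with one symbol per replicate number, and the mean (long line) with the SD (bars). In Fos, Junb and Ier2 the circle and square of STZ sit above all vehicle pools and the triangle, STZ replicate 3, sits among them, while only Klf4 has all 3 STZ pools above all 3 vehicle pools.

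The EGR factors are zinc finger proteins whose sites are GC-rich, and Egr1 is the one that most cells induce with Fos. Egr1 stood at 36.2, 28.3 and 26.0 CPM in vehicle and at 31.8, 28.8 and 20.4 CPM in STZ. The groups overlapped, with vehicle replicate 1 the highest pool and STZ replicate 3 the lowest. The Egr1 log2 fold change was -0.16 ± 0.19 (SE, 95% interval -0.60 to 0.28), with an edgeR adjusted p of 0.781.

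Egr2 (chr10:67534469-67542188), known best for its role in myelinating Schwann cells, rested on 48 to 148 counts per pool. It stood at 1.81, 1.37 and 1.13 CPM in vehicle and at 1.62, 2.54 and 0.817 CPM in STZ. The STZ pools held both the highest and the lowest value, which differed by 3.11-fold, so the vehicle range lay within that of STZ. With a log2 fold change of 0.21 ± 0.42 (SE), Egr2 did not pass (edgeR adjusted p of 0.881). Egr2 overlaps another annotated gene, Gm32255, and the use of strand in counting is not stated, so reads of the 2 genes may not have been told apart. No other member overlaps an annotated gene.

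Nr4a1 (chr15:101253902-101274795) encodes the orphan nuclear receptor Nur77. It stood at 19.8, 18.4 and 26.9 CPM in vehicle and at 24.8, 31.1 and 16.9 CPM in STZ. Again the STZ pools held the highest and the lowest value. Its log2 fold change was 0.16 ± 0.23 (SE, 95% interval -0.39 to 0.71), with an edgeR adjusted p of 0.831.

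Klf4 (chr4:55527137-55532475) encodes a zinc finger factor used in reprogramming cells to pluripotency, which in vessels is also induced in endothelial cells by flow. It stood at 2.14, 2.60 and 3.28 CPM in vehicle and at 6.43, 7.65 and 3.73 CPM in STZ, from 115 to 445 counts. It was the only member whose groups did not overlap, against 18.5% of all tested genes, or 8.64% with STZ higher. STZ replicate 3 was again the lowest of its group and exceeded the highest vehicle pool by little. For Klf4 the log2 fold change was 1.15 ± 0.31 (SE, 95% interval 0.43 to 1.86), with an edgeR p of 0.00629 and an adjusted p of 0.301. DESeq2 gave an adjusted p of 0.0119. That call was lost (adjusted p from 0.0685 to 0.249) without vehicle replicate 1, vehicle replicate 2, STZ replicate 1 or STZ replicate 2, and it held without vehicle replicate 3 (0.00715) or STZ replicate 3 (3.7e-05). Klf4 is also a gene that the study labelled on these samples, so its direction is not independent evidence.

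Ier2 (chr8:84661331-84662852) encodes a small nuclear protein that is induced with Fos and Jun. It stood at 33.6, 29.8 and 41.0 CPM in vehicle and at 60.1, 56.8 and 36.4 CPM in STZ. As in Fos and Junb, STZ replicates 1 and 2 were above every vehicle pool and STZ replicate 3 was within the vehicle range. The Ier2 log2 fold change was 0.55 ± 0.20 (SE, 95% interval 0.088 to 1.02), with an edgeR p of 0.0258 and an adjusted p of 0.390.

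The position of STZ replicate 3 recurred among the members, a pattern counted after the values were seen. It was the lowest STZ pool for 9 of the 10 members, with Jun the exception, and for 37.8% of all tested genes. The arrangement of Fos, Junb and Ier2, with STZ replicates 1 and 2 above every vehicle pool and STZ replicate 3 within the vehicle range, was found in 3 of the 10 members and in 6.67% of all tested genes. Summed over the members the level was 437, 354 and 439 CPM in vehicle and 585, 576 and 394 CPM in STZ. Without STZ replicate 3, DESeq2 called 4 members (Fos, Junb, Ier2 and Klf4), against 1.62% of the genes tested in that fit, with adjusted p-values from 3.7e-05 to 0.000732. Under edgeR no member passed without that pool either, where the lowest adjusted p of a member was 0.210. The total of STZ replicate 3 was 58394992 counts, and the part of depth in this pattern was not tested.

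Vehicle pools varied in another way. Vehicle replicate 3 was the highest vehicle pool for Fos, Junb, Ier2, Klf4 and Nr4a1, and vehicle replicate 1 for Jun, Fosb, Atf3, Egr1 and Egr2. The members thus did not rise and fall together among the vehicle pools.

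The spread between pools was wide. The within-group SD of log2 CPM, pooled over both groups, ranged from 0.153 (Jun) to 0.673 (Fosb), with a median of 0.402 against 0.213 over all tested genes. Among the 16252 tested genes with a mean of at least 1 CPM the median was 0.161 and the 75th percentile 0.273. Of the 9 members in that range, 8 were above the 75th percentile, with Jun the exception, and Egr2 alone was above the 90th percentile of 0.482. The median of the members was 0.268 without STZ replicate 3. The range on the log2 scale was wider among the STZ pools than among the vehicle pools for 8 of 10 members, with Jun and Atf3 the exceptions, and for 46.9% of all tested genes. No test was made of this difference.

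**Figure D3:**
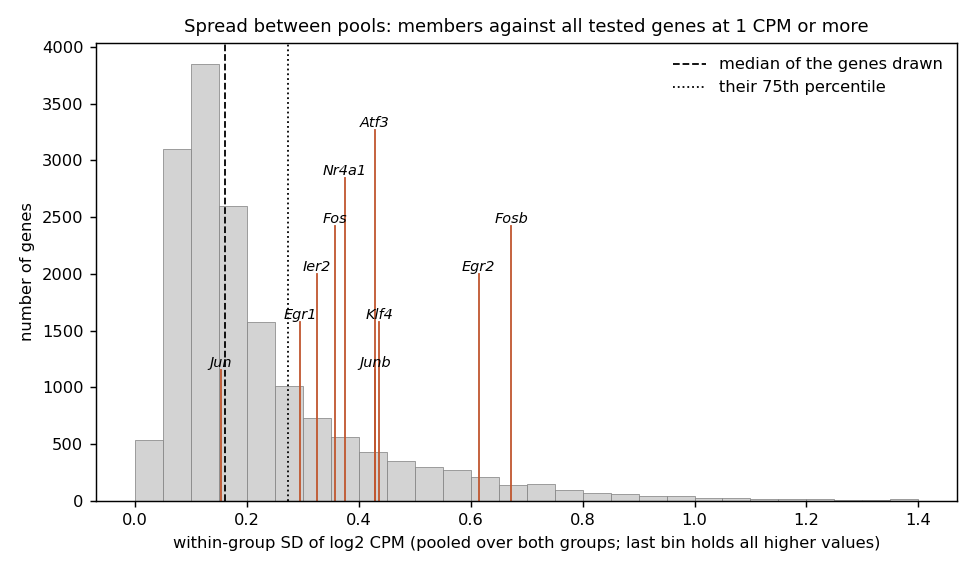
Histogram of the within-group SD of log2 CPM over the 16252 tested genes with a mean of at least 1 CPM (horizontal axis, SD; vertical axis, number of genes), with the median at 0.161 and the 75th percentile at 0.273 as vertical lines. Red lines mark the 10 members, of which Jun at 0.153 lies left of the median and Fosb at 0.673, whose mean level is below 1 CPM, lies farthest right.

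Levels of different genes were compared per transcript length, as the authors' FPKM (fragments per kilobase of transcript and per library size). Over the 6 pools Fos was the most abundant member at 64.3 ± 21.6 FPKM (SD, n = 6), followed by Junb at 39.7 ± 15.2 and Jun at 38.3 ± 3.68 FPKM. Ier2 stood at 26.7 ± 8.39 FPKM. Below these came Egr1 at 8.74 ± 1.60, Nr4a1 at 8.51 ± 2.09 and Atf3 at 5.92 ± 1.76 FPKM. Klf4 at 1.34 ± 0.719, Egr2 at 0.488 ± 0.197 and Fosb at 0.138 ± 0.0561 FPKM were the lowest. Only 3 neighbours in this order had ranges over the 6 pools that did not overlap, namely Ier2 above Egr1, Atf3 above Klf4 and Egr2 above Fosb. The order was the same by TPM. Fos exceeded Fosb in every pool, whereas the ranges of Jun and Junb overlapped.

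**Figure D4:**
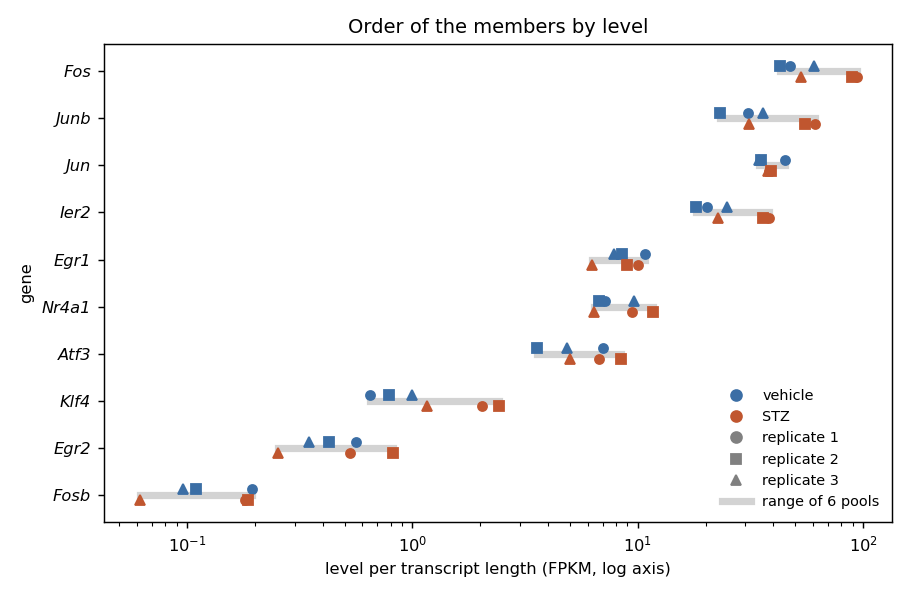
Level of each member per transcript length (horizontal axis, FPKM on a log axis) in each of the 6 pools, with the grey band as the range and colours for the group. The bands fall into 4 steps, from Fos, Junb, Jun and Ier2 (18.0 to 93.5 FPKM) through Egr1, Nr4a1 and Atf3 (3.57 to 11.7 FPKM) and then Klf4 and Egr2 to Fosb at 0.0617 to 0.195 FPKM.

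Other cell types were measured in the same pools. The 10 neutrophil and monocyte markers were all higher on average in STZ, 1 of them without overlap. Their summed level was 166, 154 and 799 CPM in vehicle and 961, 1092 and 480 CPM in STZ. All 15 endothelial markers were higher on average in STZ, 8 of them without overlap, and their sum was 83.6, 120 and 271 CPM in vehicle and 490, 363 and 267 CPM in STZ. Of 10 mural markers 9 were higher on average in STZ, 5 without overlap, with sums of 152 to 195 CPM in vehicle and 191 to 249 CPM in STZ. Over all tested genes 8.64% were higher in STZ without overlap. In all 3 lists STZ replicate 3 was the lowest STZ pool and vehicle replicate 3 the highest vehicle pool, as in Fos, Junb, Ier2, Klf4 and Nr4a1. In the lists of microglial, border macrophage and astrocyte markers STZ replicate 3 was also the lowest STZ pool. In these lists, however, vehicle replicate 1 was the highest vehicle pool, as in Fosb, Atf3, Egr1 and Egr2. Of the microglial markers 4 of 12 were higher on average in STZ, with sums of 836 to 1202 CPM in vehicle and of 829 to 1166 CPM in STZ. Of the border macrophage markers 1 of 6 was higher, with sums of 32.1 to 61.7 and of 28.0 to 68.4 CPM. Of these border macrophage markers 3 were lower in STZ without overlap, as were 3 of the 10 astrocyte markers, while 1 astrocyte marker was higher without overlap. Among all tested genes 2200 of 22337 were lower without overlap. The sums of the other lists overlapped too. They were 720 to 2203 and 771 to 2937 CPM for the oligodendrocyte lineage (5 of 9 higher) and 63.1 to 116 and 87.1 to 123 CPM for neurons (7 of 9 higher). For choroid plexus and ependyma they were 5935 to 17539 and 9093 to 15546 CPM (4 of 10 markers higher). That sum was mostly Ttr, at 5487 to 16529 CPM over all pools. The 4 higher markers were the ependymal Foxj1, Dnah11, Tmem212 and Ccdc153, while the choroid plexus markers were all lower on average. In Foxj1, Tmem212 and Ccdc153, though not in Dnah11, vehicle replicate 3 was the highest vehicle pool and STZ replicate 3 the lowest STZ pool. No marker of any list was at 0 in all pools. The part of these cells in the members' levels was not tested.

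**Figure D5:**
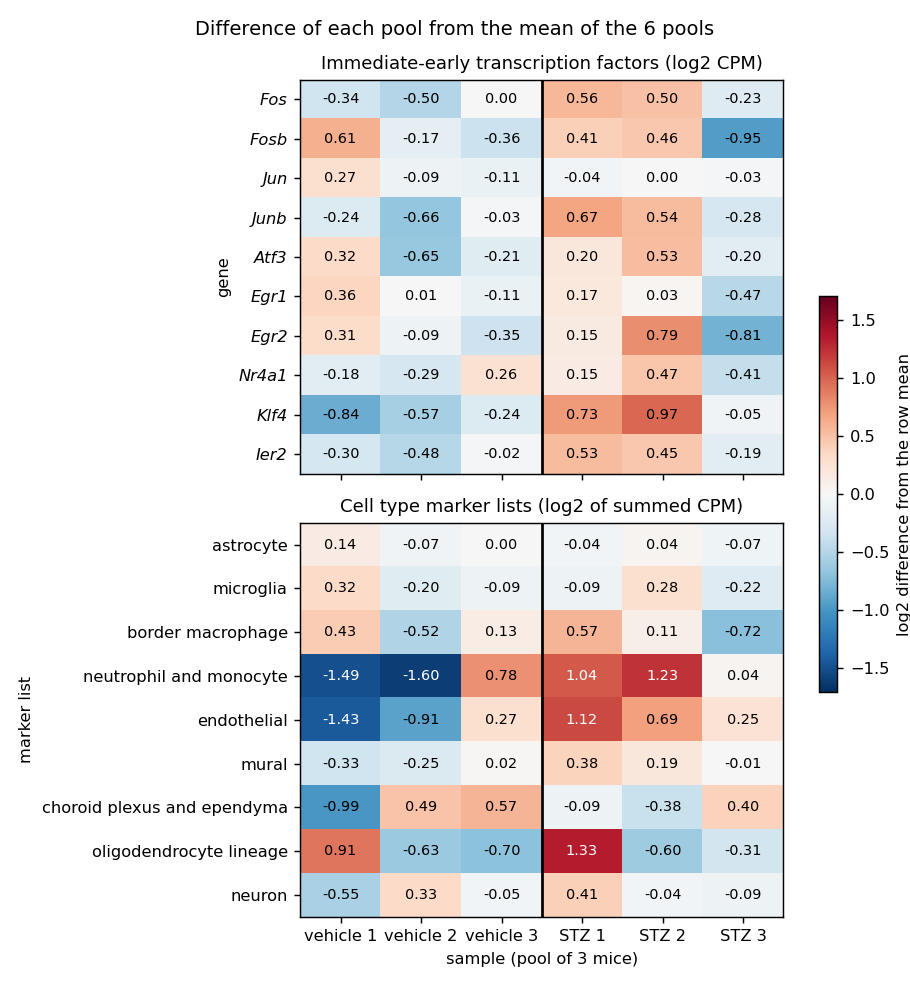
Difference of each pool from the mean of the 6 pools on the log2 scale (colour and printed value), for the 10 members (log2 CPM, upper panel) and for the summed CPM of 9 lists of cell type markers (lower panel), with vehicle pools left of the line. STZ replicate 3 is the lowest STZ pool in 9 of 10 member rows and in every marker row except choroid plexus and ependyma and the oligodendrocyte lineage. The choroid plexus and ependyma row mostly follows Ttr and does not show the ependymal markers. The astrocyte row is nearly level.

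Related genes of the immediate-early response were examined with the members, as 83 genes that act beside, before or after them. Of these 81 were tested (Fosl1 and Egr4 were not), none passed under edgeR, and 17 had an unadjusted p under 0.05, of which 13 were higher and 4 lower in STZ, against 11.3% of all tested genes. The log2 fold change was above 0 for 56 of the 81, with a median of 0.12, and for 11600 of the 22337 tested genes. DESeq2 called 3 of them (Nfkbia, Dusp1 and Ier3), all higher in STZ, against 1.05% of all tested genes.

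Among the feedback genes, which the same signals induce and which then damp them, Nfkbia encodes the inhibitor that holds NF-kappa B in the cytoplasm. It stood at 98.0, 105 and 123 CPM in vehicle and at 155, 175 and 223 CPM in STZ, with no overlap. Here STZ replicate 3 was the highest pool, unlike in the members. For Nfkbia the log2 fold change was 0.76 ± 0.15 (SE), with an edgeR adjusted p of 0.195 and a DESeq2 adjusted p of 0.000412. It too is a gene that the study labelled on these samples. Dusp1, a phosphatase that switches off MAP kinases, stood at 115, 125 and 194 CPM in vehicle and at 248, 216 and 288 CPM in STZ, again without overlap and with STZ replicate 3 the highest pool. Dusp1 had a log2 fold change of 0.79 ± 0.20 (SE), with an edgeR adjusted p of 0.289. Zfp36, which degrades AU-rich transcripts, stood at 102, 69.9 and 103 CPM in vehicle and at 165, 161 and 105 CPM in STZ. STZ replicates 1 and 2 were far above the vehicle pools and STZ replicate 3 only just above them, with a log2 fold change of 0.65 ± 0.21 (SE, edgeR adjusted p of 0.347). Tob1, an antiproliferative protein, was lower on average in STZ without overlap, with a log2 fold change of -0.26 ± 0.071 (SE, edgeR adjusted p of 0.301).

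Of the 12 KLF and other immediate-early regulators, 11 had a log2 fold change above 0 and 5 an unadjusted p under 0.05. Over all tested genes 11600 of 22337 were above 0. An edgeR unadjusted p under 0.05 was found for 11.3% of all tested genes, the share to set beside every other subgroup as well. Of the 18 feedback genes 6 had such a p, 4 higher and 2 lower in STZ. Of the 11 early effectors 2 had one, all higher in STZ, and their log2 fold changes ran from -0.18 to 1.93. Ier3, which protects cells from apoptosis, had means of 5.79 ± 1.64 CPM in vehicle and 12.8 ± 4.68 CPM in STZ (SD, n = 3), without overlap. Its log2 fold change was 1.14 ± 0.31 (SE, edgeR adjusted p of 0.301). Of the 11 tested AP-1 and ATF relatives only Mafg, a small Maf protein, had an unadjusted p under 0.05, and it was lower in STZ, with a log2 fold change of -0.42 ± 0.11 (SE, edgeR adjusted p of 0.288). The 3 tested EGR relatives and corepressors and the 2 NR4A relatives had no such gene. Nab2, a corepressor that EGR factors induce, had a log2 fold change of 0.16 ± 0.16 (SE, edgeR adjusted p of 0.745). Of 24 upstream regulators 3 had an unadjusted p under 0.05, and Srf, the factor that binds the CArG box, had a log2 fold change of -0.049 ± 0.16 (SE, edgeR adjusted p of 0.932), with 9.21 to 12.3 CPM over all pools.

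Genes other than the immediate-early factors that dissociation is known to raise were listed as well. All 27 were tested and none passed under edgeR, while 9 had an unadjusted p under 0.05, 7 higher and 2 lower in STZ, against 11.3% of all tested genes. The list was not of one direction. It was divided into heat shock and other genes, a division that the planned comparison did not hold. Of its 10 heat shock genes 9 had a log2 fold change below 0, against 10737 of the 22337 tested genes. Hspa1a and Hspa1b, counted separately here, had nearly equal levels in each pool. The median of the heat shock genes was -0.25 and was below 0 in every fit run, from -0.34 to -0.15. Hspa8, an abundant chaperone, had means of 1838 ± 135 CPM in vehicle and 1308 ± 108 CPM in STZ (SD, n = 3) without overlap, with a log2 fold change of -0.49 ± 0.10 (SE, edgeR adjusted p of 0.227). Of the other 17 genes, which are cytokines, metallothioneins and other stress genes, 15 had a log2 fold change above 0, with a median of 0.40. Among all tested genes 11600 of 22337 were above 0. Id3, an inhibitor of helix-loop-helix factors, had a log2 fold change of 0.59 ± 0.083 (SE, edgeR adjusted p of 0.138), and Cebpd, a factor of the acute phase response, of 0.88 ± 0.14 (SE, edgeR adjusted p of 0.163). Tnf, an inflammatory cytokine, had a log2 fold change of 1.88 ± 0.39 (SE, edgeR adjusted p of 0.218) at means of 0.687 and 2.55 CPM, and Mt2, a metallothionein, of 0.58 ± 0.13 (SE, edgeR adjusted p of 0.258). All 4, picked for small p-values, were higher in every STZ pool than in every vehicle pool, as were 7 of the 27 genes and 8.64% of all tested genes. STZ replicate 3 was the lowest STZ pool for Cebpd, Tnf and Mt2. It was below STZ replicate 1 by little for Cebpd (38.5 against 39.2 CPM) and Mt2 (173 against 177 CPM). Over the list it was the lowest STZ pool for 11 of 27 genes, against 37.8% of all tested genes. These were 1 of the 10 heat shock genes and 10 of the other 17. With DESeq2, 3 of the 27 passed (Cebpd, Cxcl2 and Tnf), against 1.05% of all tested genes. The study named Cxcl2 and Tnf from these samples, so their direction here is not independent evidence. Apart from these pools, the study also measured mRNA of both genes in brain extracts. The part of dissociation in the members' levels was not tested.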

How the data were processed

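Poly(A) RNA of sorted astrocytes was sequenced from SMART-Seq libraries. The submitters' processing notes name bcl2fastq 2.20.0, Trimmomatic 0.38, HISAT2 2.1.0, SAMtools 1.9, StringTie 2.1.3b and mm10, and the use of strand is not given in the sources used here. The deposited counts are raw reads assigned to each gene, in whole numbers. The deposited FPKM and TPM values were scaled by the authors to transcript length and library size.

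Sample titles gave the group and the replicate number. Genes without a 0 in any pool entered the test of edgeR 4.0.16 (R 4.3.3; TMM, quasi-likelihood, group only, two-sided) with Benjamini-Hochberg adjustment over all 22337, calling an adjusted p under 0.05 with a fold change over 1.5. The SE is the log2 fold change divided by the square root of its F statistic. CPM used TMM factors, and the SD between pools was taken on log2 CPM (prior count 2). DESeq2 1.42.0 (independent filtering at 0.1), DESeq2's size factors, no filter, filterByExpr, a replicate block, robust fitting, limma 3.58.1 on log2(TPM + 1) and log2(TPM + 0.1), and leaving out each pool were alternatives. DESeq2 with the block or without a pool was added after seeing the data. On simulated data with 200 of 22203 genes changed 2-fold, edgeR called 97 of them and 10 unchanged genes, and DESeq2 125 and 50.

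The members and lists were chosen with earlier results of these data known. All members were named. From the 2 other lists were named the 5 genes with the smallest p-values, those called and those whose role needed naming, and 5 further genes were named by likeness to the mean of the members. No pools of a group were alike within counting error (mean chi-square over genes 15.8 to 62.8). Promoters and gene positions are those of RefSeq (GRCm38.p6, the assembly behind mm10). Promoters were matched by gene symbol, and gene positions and overlaps by gene identifier. Tables and plots used Python 3.11.15, pandas 2.3.3, numpy 2.4.6 and matplotlib 3.10.9.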

Additional observations from a re-analysis of the deposited data

How the results depend on the processing

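Over all genes edgeR called 5, and 10 with robust fitting, 0 with limma on either TPM scale and 0 to 1 without any one pool, while DESeq2 called 234 (121 to 696 without one pool). The number of members called was 0 under every edgeR and limma setting. It was 1 with DESeq2 and 0 to 4 with DESeq2 without one pool (4 without STZ replicate 3, 1 without vehicle replicate 3, otherwise 0). DESeq2 called 3 related and 3 dissociation-associated genes. The replicate numbers did not pair the pools, since deviations of same-numbered pools correlated at -0.10, -0.16 and -0.18 (mean -0.15). With the replicate block edgeR called 0 genes and no member, and DESeq2 called 124 genes and no member. Fosb had a log2 fold change of -0.042 with the block (-0.059 in DESeq2) and of -0.0087 with limma on log2(TPM + 0.1). The direction also turned without some single pools, over ranges of -0.23 to 0.40 for Fosb, -0.14 to 0.084 for Jun, -0.30 to 0.0058 for Egr1, -0.25 to 0.53 for Egr2 and -0.063 to 0.36 for Nr4a1. Fos, Junb, Ier2, Klf4 and Atf3 kept their direction in all 21 alternatives. The median within-group SD of the members was 0.336 on log2(TPM + 1) and 0.268 to 0.427 without one pool. The number of members without overlap was 1 to 4 without one pool (4 without STZ replicate 3, 3 without vehicle replicate 1 or 3). With a pool fewer, groups overlap less readily, and the share over all tested genes is not given for these comparisons. The cause of these shifts was not tested. Counting error bears on Fosb (15 to 44 counts) and Egr2 (48 to 148) more than on the other members.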

Other observations

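The genes whose level followed the mean of the members most closely over the 6 pools were sought among 16243 tested genes with a mean of at least 1 CPM that were not members. The mean of the members, centred per gene on the log2 scale, was near 0, -0.35 and -0.12 in vehicle and 0.35, 0.47 and -0.36 in STZ. The closest were H1f3, a linker histone, with a root mean square difference of 0.0510, Ccrl2, an atypical chemokine receptor, at 0.0558, Gm35658 at 0.0561, Adamts10, a secreted metalloprotease, at 0.0633 and Vav1, a signalling protein of blood cells, at 0.0683. Ccrl2 stood at 6.70, 5.65 and 6.89 CPM in vehicle and at 8.79, 10.3 and 5.67 CPM in STZ. Vav1 stood at 10.1, 8.63 and 10.6 CPM in vehicle and at 14.3, 15.9 and 9.14 CPM in STZ. In both, STZ replicates 1 and 2 were above every vehicle pool and STZ replicate 3 was within the vehicle range. These genes were picked for that likeness among many candidates, so their order is a description and not a test. Of the members themselves Ier2 was closest to the mean, at 0.173, and Klf4 farthest from it, at 0.457.

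Several relatives of the members stood below 1 CPM in every pool. Egr3 stood at 0.0681 to 0.231 CPM and Nr4a3 at 0.168 to 0.454 CPM over the 6 pools. Npas4, an immediate-early factor of neurons, stood at 0.112, 0.308 and 0.401 CPM in vehicle and at 0.346, 0.670 and 0.289 CPM in STZ. The groups overlapped for each of these 3 genes, and they were picked as examples after their values were seen. Jund, in contrast, stood at 121, 120 and 120 CPM in vehicle and at 187, 138 and 125 CPM in STZ. Its groups did not overlap, and its log2 fold change was 0.32 ± 0.14 (SE, edgeR adjusted p of 0.458).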
